A study of Mus musculus with 19 samples.

Results

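Known target genes of the hypoxia-inducible factors (HIF) were followed across mouse liver tumours, namely Ndufa4l2, Vegfa, Slc2a1, Egln3, Bnip3, Pdk1, Ankrd37, Adm, Car9 and P4ha1. These are 10 of the 39179 gene identifiers in the table of read counts, and each was found by its symbol. The genes were chosen by name with earlier results of these tumours in view. Ndufa4l2 was selected on its spread between tumours, which was already known to be among the largest in the table. The spread of Ndufa4l2 is therefore given as a description, and the patterns of the other members are not independent evidence of a shared behaviour.

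RNA from whole tumours was sequenced after selection of polyadenylated RNA, and the question was how end-stage tumours of 1 genotype differ from one another. The labels list 19 samples, of which 13 are tumours, 3 are control livers and 3 are high AAV control livers. Only the 10 tumours numbered 04 to 13 are described here, because only their columns could be matched to a sample by number, on the assumption that the numbers in the sample titles are the library numbers. All mice were male, heterozygous for Ctnnb1tm1Mmt, which leaves β-catenin active after recombination, and homozygous for Gt(ROSA)26Sortm1(MYC)Djmy, a human MYC transgene behind a stop that Cre removes. The tumour mice received AAV8.TBG.PI.Cre.rBG at 640000000 genome copies each, a virus in which a hepatocyte promoter drives Cre, so recombination is directed to hepatocytes, and it was not measured in the other cells of a tumour. The control and high AAV control mice shared the alleles and the virus, the latter group at 200000000000 genome copies, and were not analysed here. No value below is set against normal liver.

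Cells keep HIF α subunits low in oxygen-rich conditions, because prolyl hydroxylases mark them for destruction by the von Hippel-Lindau protein. When oxygen falls, the α subunits build up, pair with ARNT and switch on genes for glucose uptake, glycolysis, reduced mitochondrial respiration, vessel growth, pH control and collagen modification. Liver tissue has a natural oxygen gradient that declines from the portal to the central vein, and solid tumours often outgrow their vessels.

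The library totals ran from 11687034 gene counts in tumour 07 to 36964427 in tumour 13, at which 3 counts of a gene equal 0.257 and 0.0812 per 1000000 gene counts (CPM). Markers of the labelled tissue were abundant, with Alb at 17540 ± 3257 CPM (SD, n = 10) and Glul, a β-catenin target of pericentral hepatocytes, at 10580 ± 2924 CPM. The names of the columns carry 5 tags, which tumour 04 has alone and which are shared by tumours 05 and 06, by 07 and 08, by 09 and 10, and by 11, 12 and 13. What a tag stands for is not explained in the labels. If it marks a mouse, tumours with 1 tag are not independent, and p-values measure only the spread between these samples. The closest pair of tumours, 08 and 10, still differed by 58.1 times the counting error per gene (chi-square divided by its degrees of freedom), so no library was counted as a repeat. RNAs without a poly(A) tail also separated the tumours: Rpph1 stood at 30.0 to 51.8 CPM in tumours 05, 06 and 07 and at 0.756 to 4.28 CPM in the other 7, and their part in the results was not tested beyond the fits given below.

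The sequences before the transcription start were read for the motif to which HIF binds, ACGTG, and for the related GCGTG, both also on the other strand as CACGT and CACGC. RefSeq promoters on GRCm38.p6 were found for 9 of the 10 members. In the 250 bases upstream of the start, 6 of these 9 hold ACGTG and 8 hold either motif, against 16.57% and 38.6% of all 27018 promoters of that length. A match describes letters and shows no binding. Bnip3 and Slc2a1 are printed because they passed the test with both Ndufa4l2 and Vegfa below, which for Slc2a1 with Ndufa4l2 held in 9 of 20 alternatives (Ankrd37 passed with both too, with Vegfa only narrowly, and its window lies within the annotated gene), Car9 because it is widely used as a hypoxia marker, and Vegfa because neither motif occurs in its window. Capitals mark the motifs, overlapping ones joined. The windows are chr7:138909507-138909756 (minus strand) for Bnip3, chr4:119108495-119108744 (plus) for Slc2a1, chr4:43506776-43507025 (plus) for Car9 and chr17:46032378-46032627 (minus) for Vegfa.
Bnip3: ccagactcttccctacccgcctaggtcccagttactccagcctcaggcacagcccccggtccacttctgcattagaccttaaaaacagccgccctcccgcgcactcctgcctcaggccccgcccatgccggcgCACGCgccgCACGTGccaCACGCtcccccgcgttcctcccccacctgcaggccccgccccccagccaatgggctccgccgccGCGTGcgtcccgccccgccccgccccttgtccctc
Slc2a1: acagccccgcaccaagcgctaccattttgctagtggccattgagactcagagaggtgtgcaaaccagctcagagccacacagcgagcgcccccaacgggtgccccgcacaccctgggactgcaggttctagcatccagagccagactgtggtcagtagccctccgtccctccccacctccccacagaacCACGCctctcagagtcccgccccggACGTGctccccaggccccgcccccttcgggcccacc
Car9: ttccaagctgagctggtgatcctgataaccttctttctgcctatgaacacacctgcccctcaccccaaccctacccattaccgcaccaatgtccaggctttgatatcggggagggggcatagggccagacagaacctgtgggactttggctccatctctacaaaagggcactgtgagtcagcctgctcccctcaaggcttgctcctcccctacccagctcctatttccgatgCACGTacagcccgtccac
Vegfa: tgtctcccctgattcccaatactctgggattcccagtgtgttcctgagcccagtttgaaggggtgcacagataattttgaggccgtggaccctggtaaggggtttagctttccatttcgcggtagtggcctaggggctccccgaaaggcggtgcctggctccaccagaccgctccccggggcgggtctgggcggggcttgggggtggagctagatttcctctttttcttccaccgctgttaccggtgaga

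Bnip3 holds 5 matches in 4 marked stretches, of which 2 are ACGTG read on the opposite strands of a single CACGTG. Slc2a1 holds 2 matches and Car9 holds 1, which starts 18 bases before the transcription start.

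Ndufa4l2 (ENSMUSG00000040280, chr10:127509274-127517154 on GRCm38, as are all gene positions here) encodes a mitochondrial protein that HIF-1 induces and that lowers respiratory chain activity. It was measured at 85.7 CPM in tumour 04, 104.6 and 20.4 in tumours 05 and 06, 21.4 and 8.31 in 07 and 08, 11.3 and 4.25 in 09 and 10, and 2.08, 0.723 and 0.741 in 11, 12 and 13. Tumours 04 and 05 were high and set apart from the next, tumour 07 at 21.4 CPM, and all 3 tumours 11 to 13 lay below the other 7. The highest value was 145-fold the lowest, the mean was 26.0 ± 37.5 CPM (SD, n = 10), and the SD of 2.47 log2 units was at the 99.94th percentile of the 12462 genes that passed the filter on low counts. The median SD of those genes was 0.33. Its paralogue Ndufa4, a subunit of cytochrome c oxidase that was looked up after the values were seen, ranged only from 97.0 to 192 CPM, with an SD of 28.7 CPM.

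Of the members that act on mitochondria, Bnip3 (ENSMUSG00000078566, chr7:138890836-138909506), a receptor for the removal of mitochondria, was measured at 81.6 CPM in tumour 04, 313 and 131 in 05 and 06, 47.0 and 46.8 in 07 and 08, 65.0 and 58.6 in 09 and 10, and 33.2, 46.5 and 27.2 in 11 to 13. Pdk1 (ENSMUSG00000006494, chr2:71873215-71903858), the kinase that keeps pyruvate out of the citric acid cycle, was measured at 109 CPM in tumour 04, 305 and 144 in 05 and 06, 135.5 and 162 in 07 and 08, 143 and 165 in 09 and 10, and 82.2, 102.4 and 64.8 in 11 to 13. Both were highest in tumour 05 and lowest in tumour 13, and for both the values of tumours 11, 12 and 13 lay below those of the other 7. For Bnip3 the margin was narrow, with 46.5 CPM as the highest of these 3 and 46.8 as the lowest of the others. Pdk1 had the smallest spread of the 10 members, with a 4.71-fold range and an SD of 0.61 log2 units.

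Slc2a1 (ENSMUSG00000028645, chr4:119108745-119137330) encodes the glucose transporter GLUT1, which normal hepatocytes express weakly. It was measured at 38.7 CPM in tumour 04, 334 and 84.2 in 05 and 06, 19.9 and 22.6 in 07 and 08, 100.4 and 21.5 in 09 and 10, and 11.9, 17.9 and 10.6 in 11 to 13. Tumours 05, 09 and 06 stood out at the top, and the ratio of the highest to the lowest value was 31.4.

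Among the secreted members, Vegfa (ENSMUSG00000023951, chr17:46016993-46032377), the growth factor for endothelial cells, was measured at 109 CPM in tumour 04, 526 and 171 in 05 and 06, 116.5 and 79.4 in 07 and 08, 133 and 109 in 09 and 10, and 116, 86.9 and 76.7 in 11 to 13. Tumour 05 stood alone: its value was 4.67 times the median, the other 9 tumours lay between 76.7 and 171 CPM, and the SD of 0.80 log2 units fell to 0.37 without it. Adm (ENSMUSG00000030790, chr7:110627657-110629820), the vasodilator peptide adrenomedullin, was measured at 7.51 CPM in tumour 04, 72.8 and 19.4 in 05 and 06, 6.28 and 2.12 in 07 and 08, 11.8 and 0.86 in 09 and 10, and 0.189, 0.46 and 0.946 in 11 to 13. The lowest value of Adm rests on 3 counts, so its ratio of 385 between tumours 05 and 11 has an exact 95% interval of 131 to 1869 for counting error alone.

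Egln3 (ENSMUSG00000035105, chr12:54178981-54203874), the prolyl hydroxylase that HIF induces as its own brake, was measured at 74.97 CPM in tumour 04, 219.6 and 83.1 in 05 and 06, 71.5 and 55.2 in 07 and 08, 216 and 48.3 in 09 and 10, and 37.3, 35.8 and 61.7 in 11 to 13. Car9 (ENSMUSG00000028463, chr4:43507026-43513729), a carbonic anhydrase on the cell surface was the least abundant member, at 0.491 CPM in tumour 04, 4.72 and 0.364 in 05 and 06, 0.277 and 0.483 in 07 and 08, 5.07 and 0.382 in 09 and 10, and 0.126, 0.394 and 0.23 in 11 to 13. Egln3 and Car9 therefore shared a pair of high tumours, 05 and 09, whose values lay close together, and the other 8 were low. The Car9 values of the low tumours rest on 2 to 12 counts, and the ratio of 40.2 between tumours 09 and 11 has an exact 95% interval of 10.8 to 338.

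P4ha1 (ENSMUSG00000019916, chr10:59323197-59373304), the catalytic subunit of the collagen prolyl hydroxylase, was measured at 40.9 CPM in tumour 04, 68.0 and 33.8 in 05 and 06, 37.5 and 18.0 in 07 and 08, 51.8 and 17.3 in 09 and 10, and 15.4, 12.0 and 12.0 in 11 to 13. Ankrd37 (ENSMUSG00000050914, chr8:45996908-46000414), an ankyrin repeat protein that HIF-1 induces, was measured at 14.7 CPM in tumour 04, 35.7 and 8.13 in 05 and 06, 5.91 and 4.35 in 07 and 08, 14.4 and 9.12 in 09 and 10, and 2.71, 2.73 and 1.89 in 11 to 13. In both genes tumours 04, 05 and 09 were the 3 highest and tumours 11 to 13 the 3 lowest, without overlap with the other 7.

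**Figure D1:**
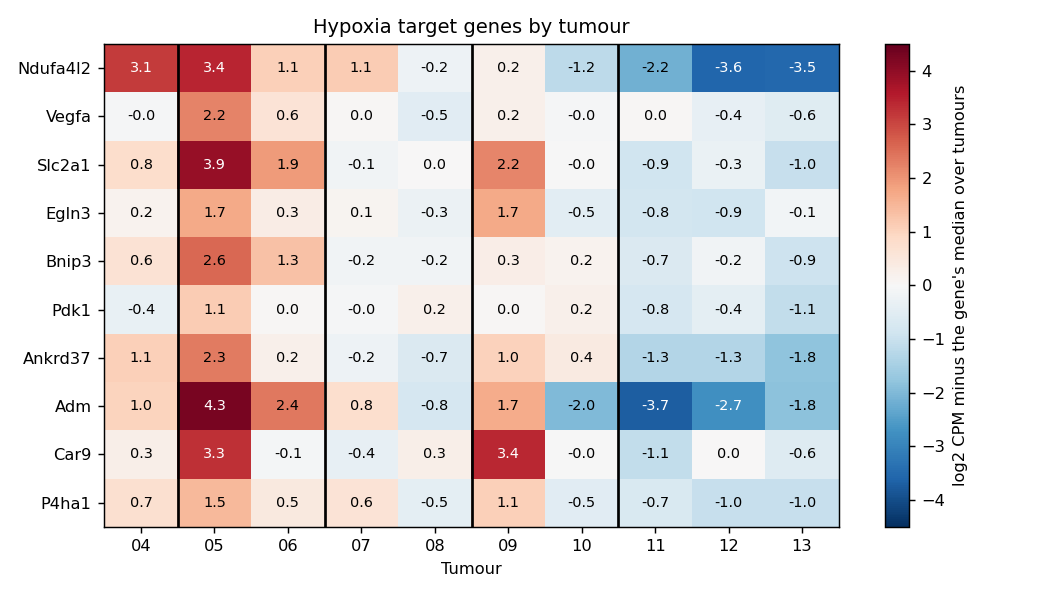
Level of each member (rows) in tumours 04 to 13 (columns) as log2 CPM minus the median of that gene over the 10 tumours, with vertical lines between tags. Tumour 05 was highest for 9 of 10 members, and tumours 11, 12 and 13 were among the 3 lowest for 9, 9 and 8 members.

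Tumour 05 was the highest for 9 of the 10 members and the second highest, after tumour 09, for Car9. All 8 members that passed the filter on low counts had their highest value in tumour 05, where 18.3% of the 12462 genes did. Tumours 11, 12 and 13 all lay below the other 7 for 6 members, namely Ndufa4l2, Slc2a1, Bnip3, Pdk1, Ankrd37 and P4ha1, whereas 3.48% of the genes had that order. These 2 orders were read from the data and were not tested. Leaving out Ndufa4l2, which was selected on its spread, the SD of log2 CPM was above the median of all genes for 7 of the 7 other members that passed and above the 95th percentile for 3 (Slc2a1, Ankrd37 and Bnip3), with a median of 0.92 over the 7.

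Levels of different genes were compared only per kilobase of exon (RPKM). By mean RPKM the order was Vegfa with 35.4 ± 31.2 (SD, n = 10), Egln3 with 33.6 ± 25.6, Ndufa4l2 with 22.6 ± 32.7, Bnip3 with 19.7 ± 19.8, Pdk1 with 16.1 ± 7.54, Slc2a1 with 14.1 ± 21.1, Adm with 7.51 ± 13.6, Ankrd37 with 5.32 ± 5.41, P4ha1 with 4.73 ± 2.94 and Car9 with 0.514 ± 0.789. Neighbours in this order differed by less than the larger of their SDs, except P4ha1 and Car9.

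The members varied in the same direction across the tumours. All 45 pairs of members had a positive Pearson r of log2 CPM, from 0.51 for Ndufa4l2 with Car9 to 0.93 for Slc2a1 with Bnip3, with a median of 0.80 (n = 10 tumours, which share tags and 1 count table). An r above 0.7 was reached by 35 of the 45 pairs (77.8%), and by 2.72% of the 77644491 pairs among all genes that passed the filter. Without tumour 05 all 45 remained positive, their median was 0.67 and 20 (44.4%) exceeded 0.7, as did 2.84% of the pairs among all genes. Without tumours 05 and 09 the median was 0.64 and 44 of 45 were positive, the exception being Vegfa with Car9 at −0.09. On deviations from the tag means the median was 0.72 and the lowest r 0.05. Tumour 04, alone in its tag, adds nothing there, and a pair of tumours with 1 tag gives mirrored values. These r values therefore rest on fewer independent values than there are tumours, and no share over all genes was taken. Among the 7 tumours low in RNAs without a poly(A) tail the median was 0.69 and the lowest 0.29, and 22 of the 45 pairs (48.9%) exceeded 0.7, against 5.38% of the pairs among all genes.

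**Figure D2:**
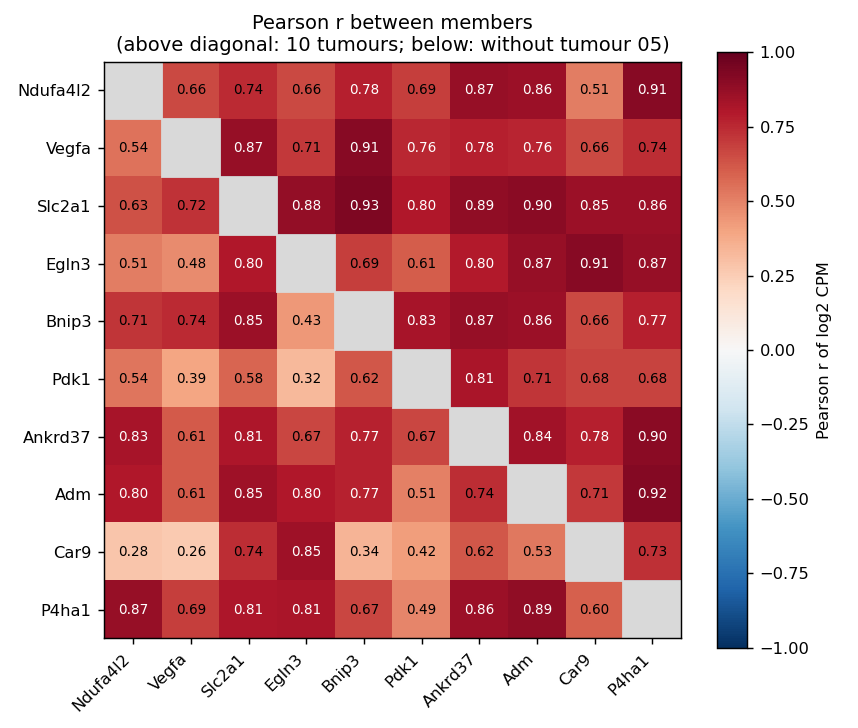
Pearson r of log2 CPM for each pair of members, over 10 tumours above the diagonal and over 9 tumours, without tumour 05, below it. All values are positive, and the median falls from 0.80 to 0.67 when tumour 05 is left out, with the pairs of Car9 with Vegfa and with Ndufa4l2 lowest at 0.26 and 0.28.

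Pairs inside the group differed in how closely they tracked each other. Ndufa4l2 was nearest to P4ha1 (r = 0.91), Ankrd37 (0.87) and Adm (0.86), and P4ha1 had rank 35 by r among the 12461 other genes. Vegfa was nearest to Bnip3 (0.91) and Slc2a1 (0.87), and Egln3 to Car9 (0.91). The last of these fell to 0.34 without tumours 05 and 09, whereas Slc2a1 with Bnip3 reached 0.98 and Ndufa4l2 with P4ha1 0.96 without them.

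**Figure D3:**
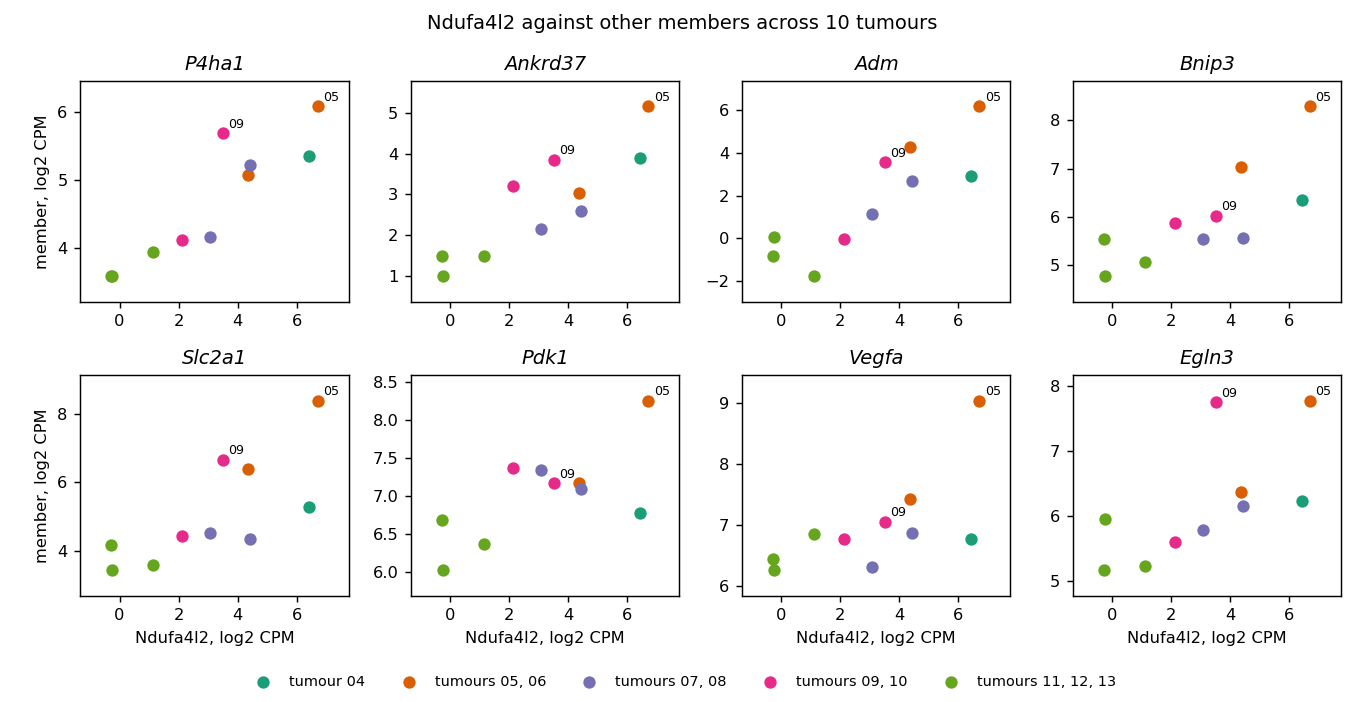
Log2 CPM of 8 members (vertical axes) against log2 CPM of Ndufa4l2 (horizontal axes), 1 point per tumour, coloured by tag, with tumours 05 and 09 labelled. P4ha1 and Ankrd37 have r values of 0.91 and 0.87 with Ndufa4l2, while in the Vegfa panel tumour 05 lies at 526 CPM and the other 9 at no more than 171.

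To set the members against all genes, a slope on log2 CPM of Ndufa4l2 was fitted for each of 12461 genes with edgeR's quasi-likelihood test and Benjamini-Hochberg adjustment over all of them. Of the 7 other members that passed the filter, 4 rose with Ndufa4l2 at an adjusted p below 0.05, and all 7 slopes were positive, where 2.21% of all genes tested rose and 0.987% fell (275 and 123 genes). P4ha1 rose by 0.34 ± 0.05 log2 units per log2 unit of Ndufa4l2 (SE; edgeR adjusted p = 0.0131), Ankrd37 by 0.48 ± 0.08 (0.0176), Bnip3 by 0.36 ± 0.07 (0.029) and Slc2a1 by 0.56 ± 0.12 (0.031). Over 20 alternatives P4ha1 was called in 14, Ankrd37 in 13, Bnip3 in 12 and Slc2a1 in 9, and the adjusted p of Slc2a1 ran from 0.00173 to 0.845. Vegfa, with 0.27 ± 0.07 (edgeR adjusted p = 0.0588), Pdk1, with 0.18 ± 0.06 (0.091), and Egln3, with 0.26 ± 0.09 (0.12), did not pass. Adm and Car9 did not pass the filter. In the edgeR fit without the filter the slope of Adm was 0.94 ± 0.15 (adjusted p = 0.0118) and that of Car9 0.48 ± 0.20 (0.241).

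Without tumour 05 edgeR called 0 genes (1958 had an unadjusted p below 0.05), without tumour 12 it called 4, and without 08, 10, 11 or 13 it called 150 to 265. No gene was called either with the score of RNAs without a poly(A) tail or with the tag as a further term. An unadjusted p below 0.05 was then reached by 1744 and 699 of 12461 genes, where chance alone gives a share of 0.05. DESeq2 called 1272 genes and all 7 members without such a term. With the poly(A) score in the edgeR fit the slope was 0.56 for Ankrd37, 0.32 for P4ha1, 0.51 for Slc2a1 and 0.27 for Bnip3, and with the tag it was 0.60, 0.56, 0.62 and 0.25. The slopes of these 7 members were positive in all 20 alternatives, but smaller without tumour 05. There the slope was 0.32 for P4ha1, 0.40 for Ankrd37, 0.22 for Bnip3 and 0.38 for Slc2a1. For Vegfa it was 0.10, for Pdk1 0.11 and for Egln3 0.20.

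The same fit on log2 CPM of Vegfa, over the same tumours, called 331 genes that rose (2.66%) and 47 that fell (0.377%). Among the 7 other members Bnip3 rose by 1.15 ± 0.14 log2 units per log2 unit of Vegfa (SE; edgeR adjusted p = 0.00823), Slc2a1 by 1.70 ± 0.25 (0.00927) and Ankrd37 by 1.19 ± 0.29 (0.0483). Ankrd37 was close to the threshold and passed it in only 4 of 20 alternatives, with adjusted p values from 0.00422 (DESeq2) to 0.979 (edgeR with the tag). Pdk1 with a slope of 0.54 ± 0.14 (edgeR adjusted p = 0.0694), P4ha1 with 0.81 ± 0.24 (0.0876), Egln3 with 0.80 ± 0.25 (0.104) and Ndufa4l2 with 1.35 ± 0.65 (0.274) did not pass. Without the filter, the edgeR slope was 2.31 ± 0.46 for Adm (adjusted p = 0.0367) and 1.42 ± 0.52 for Car9 (0.26). Without tumour 05, edgeR called 0 genes (1022 at an unadjusted p below 0.05), and without 10, 12 or 13 it called 188 to 236, while DESeq2 on all 10 tumours called 961 and 6 of the 7 members. The slopes without tumour 05 were 1.38 for Bnip3, 2.39 for Slc2a1, 1.91 for Ankrd37 and 0.38 for Pdk1. They were 1.61 for P4ha1, 1.23 for Egln3 and 2.66 for Ndufa4l2, where the SD of Vegfa was only 0.37 log2 units. With the poly(A) score or the tag as a further term edgeR called 0 genes and no member. An unadjusted p below 0.05 was reached by 1739 and 516 of 12461 genes, where chance alone gives a share of 0.05. The count with the tag lay below that share. With the poly(A) score and with the tag the slopes were 1.17 and 0.64 for Bnip3, 1.94 and 1.11 for Slc2a1 and 1.45 and 1.24 for Ankrd37.

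**Figure D4:**
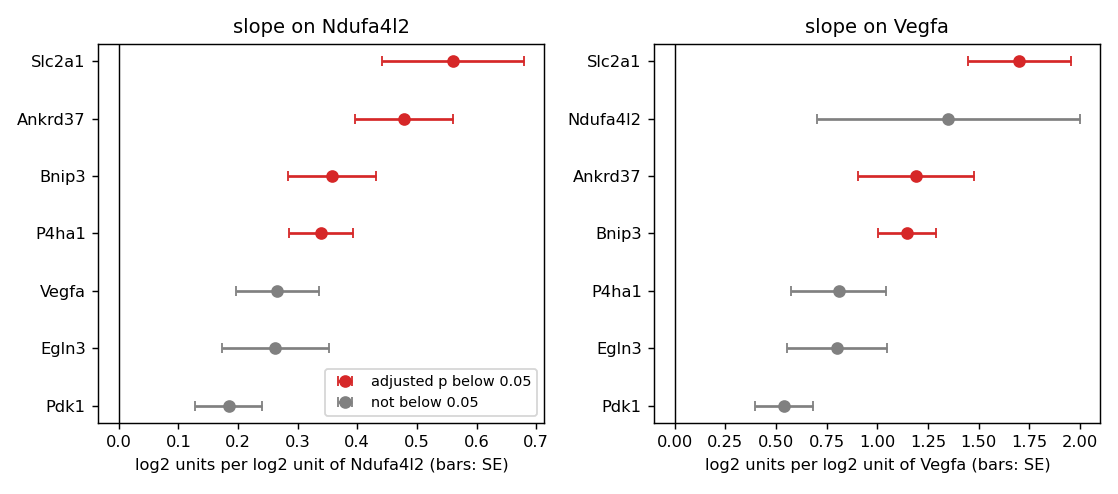
Slope of each member that passed the filter on Ndufa4l2 (left) and on Vegfa (right), in log2 units per log2 unit of the anchor gene, with bars for the SE of the edgeR fit over 10 tumours. Red points have an adjusted p below 0.05 over all genes tested, 4 of 7 on the left and 3 of 7 on the right, and every slope is above 0.

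The tags were compared with an edgeR F test over the 5 tags. It called 53 of 12462 genes (0.425%) and 0 of the 8 members tested. An unadjusted p below 0.05 was reached by 7 of the 8 members and by 1863 of the 12462 genes. Bnip3 came nearest with an edgeR adjusted p of 0.052, followed by Ndufa4l2 with 0.0567. DESeq2's likelihood ratio test called 7 of the 8 and 1207 of all genes tested. Leaving out 1 tumour moved the count of genes to between 0, without tumour 11, and 167, without tumour 10. Members were then called in 4 of the 10 fits, 3 without tumour 10, 2 without 04, 2 without 06 and 1 without 09. The median difference of Ndufa4l2 was 1.38 log2 units within the 6 pairs of tumours that share a tag and 3.24 in the 39 other pairs. Values of Slc2a1 were 0.67 and 1.73 and those of Ankrd37 0.50 and 1.55, whereas Vegfa had 0.48 and 0.55, Egln3 0.75 and 0.94, and Car9 0.88 and 0.82.

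Other genes of the hypoxia response were taken from 7 lists that hold 92 genes beside the members, of which 73 were tested. With Ndufa4l2, 22 of the 73 rose (30.1%, against 2.21% of all genes tested) and 0 fell at an edgeR adjusted p below 0.05, and 65 slopes were above 0. With Vegfa, 25 rose (34.2%, against 2.66% of all genes tested) and 0 fell. The median slope of the 73 on Ndufa4l2 was 0.13, and that of all genes tested was 0.0009, with 6311 of 12461 above 0. Without tumour 05 no gene of any list was called, since edgeR called 0 genes in all.

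In glycolysis and lactate export 8 of 18 genes rose with Ndufa4l2. They include Pfkp and Pfkl, both phosphofructokinases of the committed step, Pkm, the pyruvate kinase gene that makes the last ATP of the pathway, and Slc16a3, the lactate exporter. The slope was 0.65 ± 0.08 for Pfkp (edgeR adjusted p = 0.0101), 0.59 ± 0.09 for Pkm (0.0101), 0.26 ± 0.05 for Pfkl (0.0227) and 0.70 ± 0.13 for Slc16a3 (0.0247). Pkm ranged from 21.4 CPM in tumour 12 to 667 in tumour 05.

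Of 9 HIF subunits and regulators 2 rose, Egln1, the main oxygen-sensing hydroxylase, with a slope of 0.26 ± 0.04 (edgeR adjusted p = 0.0131), and Cited2, a HIF target that competes with HIF for its coactivators, with 0.50 ± 0.10 (0.0257). The transcripts of the α subunits, looked up after the values were seen, were not called: Hif1a ranged from 18.4 to 41.4 CPM and Epas1 from 85.5 to 161, with slopes of 0.01 ± 0.05 and 0.03 ± 0.04 (edgeR adjusted p = 0.951 and 0.734). HIF α subunits are regulated mainly as proteins, which were not measured here.

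Of the secreted vascular factors and their receptors, Nrp1, a co-receptor for Vegfa, rose with a slope of 0.28 ± 0.07 on Ndufa4l2 (edgeR adjusted p = 0.0486). In collagen modification 2 of 5 rose, P4ha2, a second catalytic subunit of the collagen prolyl hydroxylase, with 0.40 ± 0.07 (edgeR adjusted p = 0.0199), and the lysyl hydroxylase Plod2 with 0.56 ± 0.11 (0.0257).

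In mitochondrial adaptation 2 of 8 rose, the mitophagy receptors Fundc1, with a slope of 0.12 ± 0.03 (edgeR adjusted p = 0.0466), and Bnip3l, with 0.17 ± 0.04 (0.0472). The reads of Bnip3l may be divided with its pseudogene Bnip3l-ps. For pH regulation 1 of 5 rose, the bicarbonate transporter Slc4a4, with 0.16 ± 0.04 (edgeR adjusted p = 0.0357). Of 18 other HIF targets 5 rose, and those with the smallest p were Ndrg1 with 0.55 ± 0.06 (edgeR adjusted p = 0.00999), the transcriptional repressor Bhlhe40 with 0.52 ± 0.07 (0.0101), the mTORC1 inhibitor Ddit4 with 0.39 ± 0.06 (0.0154) and the mitochondrial adenylate kinase Ak4 with 0.41 ± 0.08 (0.0227). Ndrg1, a stress-response gene, was at 1830 CPM in tumour 05 and 52.3 in tumour 12.

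The genes with the highest r with Ndufa4l2 over the 10 tumours included Mbd2 (0.97), Ciao2b, Bcl2l1, Leprot, Igfbp3, Myo5a, Notch4, Ndrg1 and Ppp4r2 (0.93). Igfbp3, which binds insulin-like growth factors, spanned 8.25 to 308 CPM, while Mbd2, a reader of methylated DNA, spanned only 37.2 to 70.3. The lowest r belonged to Tardbp (−0.96), Cpt1a (−0.95), Zfp770, Zfp825 and Klhdc7a (−0.93). Cpt1a, which admits fatty acids into mitochondria for oxidation, was at 247 CPM in tumour 05 and 850.1 in tumour 12, with a slope of −0.23 ± 0.03 on Ndufa4l2 (edgeR adjusted p = 0.0101). The genes nearest to Vegfa were Nrbf2 (0.97), Bnip3l-ps, Bnip3l, Brpf1 and Ccdc174 (0.96).

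Ndufa4l2 is also expressed by pericytes and Vegfa by several cell types, so markers of other cells were set beside them, and in bulk tissue fewer cells of a type and less RNA per cell cannot be told apart. The 11 endothelial markers summed to between 85.4 CPM in tumour 13 and 604 in tumour 07, with none at 0. The 11 mural markers, those of pericytes and smooth muscle, summed to between 32.9 CPM in tumour 11 and 287 in tumour 07, and only Higd1b was at 0, in tumour 12. Both sums were lowest in tumours 11, 12 and 13, where Ndufa4l2 was lowest, but they peaked in tumour 07, where Ndufa4l2 was at 21.4 CPM. Immediate early and heat shock genes summed to 2954 CPM in tumour 05 and 301 in tumour 13, and the red blood cell markers to 6181 CPM in tumour 07 and 100.8 in tumour 13.

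**Figure D5:**
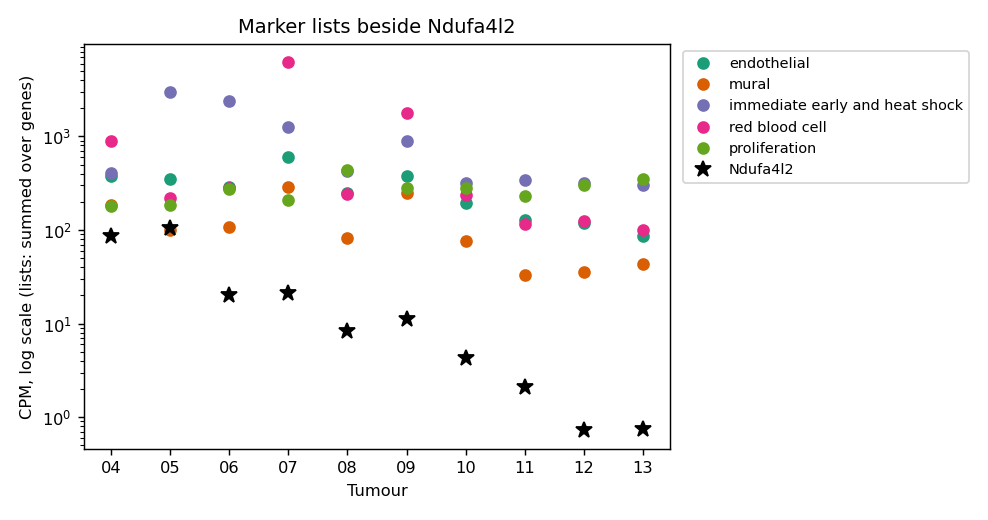
CPM in each tumour on a log axis, summed over the genes of 5 marker lists (circles) and for Ndufa4l2 (stars). Endothelial and mural sums are lowest in tumours 11, 12 and 13, as is Ndufa4l2, and the immediate early and heat shock sum is highest in tumour 05, at 2954 CPM.

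None of the 130 pairs of a member and a marker list passed Benjamini-Hochberg adjustment over the 10 tumours by Pearson's r or by Spearman's rho (30 had an unadjusted p below 0.05 by r). For Ndufa4l2 with the endothelial score r was 0.774 and rho 0.782 (two-sided permutation tests, p = 0.0103 and 0.0107, adjusted p = 0.115 and 0.174). With the mural score r was 0.773 and rho 0.842 (permutation p = 0.0106 and 0.00372, adjusted p = 0.115 and 0.174). Without the 2 tumours farthest from the median score the r values were 0.807 and 0.922. Vegfa had an r of 0.337 with the endothelial and 0.27 with the mural score, while its r was −0.738 with the hepatocyte score (permutation p = 0.01, adjusted p = 0.115) and 0.732 with the immediate early and heat shock score (rho = 0.818, permutation p = 0.00299 and 0.00601, adjusted p = 0.115 and 0.174), and without the 2 farthest tumours these were −0.326 and 0.685.

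Among the 7 tumours low in RNAs without a poly(A) tail, which leaves out tumours 05, 06 and 07, 15 of the 130 pairs passed (exact permutation tests). Of these tumours 11, 12 and 13 share a tag, as do 09 and 10, and the tests treat all 7 as exchangeable. The pairs that passed include P4ha1 with the endothelial (r = 0.953) and mural (0.968) scores and Ndufa4l2 with the mural score (0.875). The last had an adjusted p of 0.0497 in the exact permutation test. Pairs with the stellate and fibroblast score also passed, for Slc2a1 (0.956), Car9 (0.935) and Adm (0.901). So did pairs with the red blood cell score, for Slc2a1 (0.954), P4ha1 (0.924) and Adm (0.873). In the fit over all genes, 2.21% of those tested rose with Ndufa4l2. Among the markers, 3 of 11 endothelial, 0 of 8 mural and 5 of 8 immediate early and heat shock genes rose. All 11 endothelial and all 8 mural slopes were above 0, with medians of 0.35 and 0.33. The mural markers Rgs5 and Abcc9 had edgeR adjusted p values of 0.0768 and 0.0769. Of the macrophage markers 1 of 4 rose, Cd68. None of the 12 proliferation markers was called, and all 12 slopes were below 0, and 0 of 6 hepatocyte markers were called. With the endothelial and mural score as a further term, edgeR called 169 genes and 1 member, Bnip3, with Ndufa4l2, and 317 genes and 4 members with Vegfa. In the former fit the slope was 0.59 for Slc2a1, 0.50 for Ankrd37, 0.53 for Bnip3, 0.41 for Vegfa and 0.24 for Pdk1. Without the term these were 0.56, 0.48, 0.36, 0.27 and 0.18. The slope fell from 0.34 to 0.24 for P4ha1 and from 0.26 to 0.14 for Egln3. With the term the edgeR adjusted p was 0.0921 for Slc2a1, 0.068 for Ankrd37, 0.0894 for P4ha1 and 0.524 for Egln3.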

How the data were processed

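The data are raw read counts that the authors deposited as a single gene-by-library table, with 39179 identifiers and 5 summary lines of htseq-count. The submitters' processing notes name TopHat2, HTSeq and GRCm38, the study's methods name other programs, and the strand setting is not given in the sources used here. Of 19 columns, 10 matched a tumour by number and 9 were not used. Symbols and exon lengths came from GENCODE M39 by stable identifier (87.29% matched), and positions and promoters from RefSeq on GRCm38. The members, gene lists and tests were chosen with earlier results of these data known. Named genes were all members, up to 4 genes called per pathway list (smallest p), the 10 most and 5 least correlated with Ndufa4l2, and the 5 most correlated with Vegfa. Some genes that this rule names are not reported here.

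Genes were filtered with filterByExpr (12462 kept), scaled by TMM and tested with edgeR 4.0.16 in R 4.3.3. Log2 CPM used a prior count of 2. The threshold was an adjusted p of 0.05. Alternatives used DESeq2 1.42.0 and limma 3.58.1. Marker scores were mean log2 CPM, with 100000 permutations. Scripts were tested on simulated data. Python 3.11.15, scipy 1.17.1 and matplotlib 3.10.9 were used. Floors and intervals cover counting error only.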

Additional observations from a re-analysis of the deposited data

Results flagged for a closer look

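Vegfa in tumour 05 stood apart from the other 9 tumours on the log2 CPM scale. The gap to the next tumour, 06, was 0.583 of the whole range, above Dixon's 95% critical value for 10 samples. It was the only one of the 10 members with such a gap. Chance gives such a gap in about 1 in 20 single genes, and 10 were looked at, so 1 flag is no rarity for the set.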

How the results depend on the processing

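For the members that passed the filter on low counts, 7 slopes on each anchor gene, the direction held in all 20 alternatives, while Adm and Car9 were fitted without that filter alone. The size of the slopes varied, from 0.088 to 0.50 for Vegfa on Ndufa4l2 and from 0.24 to 0.56 for P4ha1 on Ndufa4l2. The number of genes associated with Ndufa4l2 (398) became 1272 with DESeq2's Wald test, 0 with the score of RNAs without a poly(A) tail, 169 with the endothelial and mural score, 0 with the tag as a block, 5 without the 2 tumours farthest from the median (12 and 13) and 43 without tumours 05 and 09. Leaving out 1 tumour gave 0 to 543, with 0 without tumour 05, 4 without 12, 150 without 11, 169 without 13, 254 without 10 and 265 without 08. For Vegfa (378) these were 233 without a filter on low counts, 961 with DESeq2's Wald test, 0 with the poly(A) score, 0 with the tag block, 0 without the 2 farthest (05 and 06) and 0 without tumours 05 and 09 (991 and 842 at an unadjusted p below 0.05 in edgeR). Leaving out 1 tumour gave 0 to 357, with 0 without 05, 188 without 13, 199 without 12 and 236 without 10. The fits without tumours 05 and 09 were chosen after seeing the data.

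The tag test (53) gave 973 genes without a filter, with 8 of 10 members, and 1207 with DESeq2's likelihood ratio test. Leaving out 1 tumour gave 0 (without 11, 1466 at an unadjusted p below 0.05) to 167 (without 10), with 2 without 05 or without 13, 17 without 06, 19 without 12, 30 without 07, 120 without 09 and 135 without 04. Marker list pairs (0) became 15 among the 7 tumours low in RNAs without a poly(A) tail. The SD of Bnip3 fell from 1.03 to 0.68 log2 units without tumour 05. The causes were not tested. No paired analysis was possible because all tumours form 1 group. At these depths Adm and Car9 were near the floor of 3 counts in some tumours.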
